A study of Homo sapiens with 24 samples.

Results

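The inhibitors of cyclin-dependent kinases (CDKs) of the CIP/KIP and INK4 families were examined in SKBR3 cells, and were taken as the rows of the read-count table whose gene symbol was CDKN1A, CDKN1B, CDKN1C, CDKN2A, CDKN2B, CDKN2C or CDKN2D. Of the 14493 genes in the table, 6 were members: 2 of the CIP/KIP family (CDKN1A and CDKN1B) and 4 of the INK4 family (CDKN2A, CDKN2B, CDKN2C and CDKN2D). CDKN1C, which encodes p57KIP2, was listed among the 7 symbols and had no row, so its level was not analysed here. The table holds genes with a count of at least 1 in every library.

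SKBR3 is an established ERBB2-amplified (HER2-positive) human breast cancer line. The 24 libraries fell into 8 groups of 3: untreated day-0 cells, untreated day-7 cells, and cells collected on day 7 after the acetyl-CoA carboxylase inhibitor ND-646 (250 nmol/L), the fatty acid synthase inhibitor TVB-3166 (250 nmol/L), the DNA-cleaving agent bleomycin (10 µmol/L), the topoisomerase II poison doxorubicin (10 nmol/L), the CDK4/6 inhibitor palbociclib (1 µmol/L) or the Aurora A kinase inhibitor alisertib (500 nmol/L). All 6 drug groups were refed on day 3, whereas the labels of the untreated day-7 cells name no refeeding. If those cells were not refed, drug and refeeding cannot be told apart in the comparisons with day-7. The drug groups are called therapy-induced senescence (TIS) cells after the study's own term. The study used the day-7 untreated cells to account for a week in culture. All groups share 1 cell line, and the labels do not say that replicates came from separate cultures, so the p-values measure only the spread between these libraries.

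Total counts ran from 29405121 to 44316330 per library. KRT18 was on the list of breast epithelial markers and is not described here. The other markers on that list, ERBB2, GRB7, KRT8, KRT19 and EPCAM, had rows. As the table holds only genes counted in every library, their detection in each library follows from having a row. Of the markers of other cell types COL1A1, a fibroblast collagen, had a row and stayed at 15.3 CPM or less, and PTPRC, PECAM1 and VIM had none. A missing row may mean only that some library had no count. Day-0 replicate 1 stood apart from the other day-0 libraries in the share of its counts from mitochondrial genes, which was 8.01% against 1.22% and 1.51%. ND-646 replicate 1 had the lowest scaling factor of the 24 libraries, 0.791. Calls of members that changed when either library was left out are given below.

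Both families hold CDKs in check at the G1 phase of the cell cycle, and act in different ways. INK4 proteins (p16INK4A, p15INK4B, p18INK4C and p19INK4D) bind CDK4 and CDK6 and keep them from D-type cyclins, whereas the CIP/KIP proteins p21CIP1 and p27KIP1 bind cyclin-CDK complexes and block CDK2 in particular. With CDK activity blocked, the retinoblastoma protein and its relatives stay active and restrain E2F factors. p21 and p16 are widely used markers of senescent cells.

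The members lie on 5 chromosomes of the GRCh37 assembly. CDKN1A is at chr6:36644237-36655114 on the plus strand, CDKN1B at chr12:12838432-12875303 on the plus strand, CDKN2C at chr1:51426417-51440306 on the plus strand and CDKN2D at chr19:10677136-10679735 on the minus strand. CDKN2A (chr9:21967751-21995300) and CDKN2B (chr9:22002902-22009304) are neighbours on the minus strand of chromosome 9. The long non-coding RNA gene CDKN2B-AS1 runs across both on the other strand, and its exons share 593 bases (15.3%) of the exon bases of CDKN2A and 0 of CDKN2B. CDKN2C shares 20.4% of its exon bases with an unnamed antisense gene that had no row in the table, and CDKN1A shares 4.87% with DINOL, which had none either. How strand was treated in counting is not given in the sources used here, so reads from the shared stretches may belong to either gene. CDKN2A encodes both p16INK4A and p14ARF from different first exons, and counts per gene cannot tell the transcripts apart.

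The promoters of the gene that rose in every drug group (CDKN2B), of the CIP/KIP gene that rose (CDKN1A) and of the gene that fell in every drug group against day-0 (CDKN2C) are shown because they are the ones the changes below turn on. Each is the 250 bases before a RefSeq start on GRCh38.p14, read along the gene's strand, at chr6:36678464-36678713 (plus) for CDKN1A, chr9:22009306-22009555 (minus) for CDKN2B and chr1:50969995-50970244 (plus) for CDKN2C, which has 3 such starts. Capitals mark GGGCGG (the GC box bound by Sp1-type factors, on either strand), CCAAT and the E-box CACGTG.
CDKN1A: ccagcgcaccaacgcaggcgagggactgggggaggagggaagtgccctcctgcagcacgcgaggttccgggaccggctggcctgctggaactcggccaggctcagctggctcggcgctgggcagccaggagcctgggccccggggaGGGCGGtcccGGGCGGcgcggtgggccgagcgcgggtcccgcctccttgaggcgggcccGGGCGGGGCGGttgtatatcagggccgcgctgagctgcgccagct
CDKN2B: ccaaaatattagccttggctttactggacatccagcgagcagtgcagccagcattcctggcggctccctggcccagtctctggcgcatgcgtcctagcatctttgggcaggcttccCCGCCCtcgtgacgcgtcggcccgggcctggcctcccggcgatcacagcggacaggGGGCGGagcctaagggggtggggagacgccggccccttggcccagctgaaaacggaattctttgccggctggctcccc
CDKN2C: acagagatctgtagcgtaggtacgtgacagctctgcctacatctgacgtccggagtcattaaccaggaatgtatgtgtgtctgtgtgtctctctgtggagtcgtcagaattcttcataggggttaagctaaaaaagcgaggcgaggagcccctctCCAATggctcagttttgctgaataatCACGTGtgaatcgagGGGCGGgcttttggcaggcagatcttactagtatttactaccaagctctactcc
CDKN1A held 4 GC boxes, of which the 2 nearest the start overlap by 1 base. CDKN2B held 2 GC boxes, 1 on each strand. The CDKN2C window shown held 1 GC box, 1 CCAAT and 1 E-box, and another of its starts had 5 GC boxes and no other match. Of 35116 promoter windows of the same length, 42.6% held GGGCGG, 32.0% CCAAT and 6.34% CACGTG on either strand. TATAAA (10.7% of all windows) and TTTNGCGC, an E2F-type run (1.51%), were in none of the 9 windows of the 6 members. A match is a description of the letters and not evidence of a bound factor.

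Among the CIP/KIP genes, CDKN1A (p21) had its highest group means in cells treated with the fatty acid synthesis inhibitors. The ranges of both these groups overlapped that of bleomycin TIS cells. Neither group was tested against bleomycin TIS cells, so no difference from them was shown and no likeness either. Levels are CPM, the reads of a gene relative to the library total after scaling by the trimmed mean of M-values (TMM), and are given in the order of replicates 1, 2 and 3. In untreated day-0 cells CDKN1A was at 8.31, 20.6 and 17.8 CPM, and in untreated day-7 cells at 10.8, 9.88 and 14.9 CPM. In ND-646 TIS cells it was at 86.5, 30.5 and 49.2 CPM, and in TVB-3166 TIS cells at 47.2, 36.1 and 39.5 CPM. All 6 of these libraries were above all 6 untreated libraries, and the ND-646 replicates spread more widely than those of any other group. Bleomycin TIS cells had 33.7, 31.6 and 39.0 CPM, and palbociclib TIS cells 26.5, 26.3 and 24.4 CPM, again above every untreated library. Doxorubicin TIS cells (20.9, 19.2 and 17.4 CPM) overlapped the day-0 range, and alisertib TIS cells (11.0, 13.0 and 9.45 CPM) lay within the range of the untreated cells.

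Changes were tested with edgeR's quasi-likelihood test, and a gene was called changed at a Benjamini-Hochberg adjusted p under 0.05 over all genes tested. Against day-0, CDKN1A rose 3.54-fold in ND-646 TIS cells (log2 fold-change 1.82, SE 0.42, adjusted p = 0.00906), 2.65-fold in TVB-3166 TIS cells (1.41, SE 0.26, adjusted p = 0.000821), 2.25-fold in bleomycin TIS cells (adjusted p = 0.00685) and 1.66-fold in palbociclib TIS cells (adjusted p = 0.0327). Without ND-646 replicate 1 its log2 fold-change in ND-646 TIS cells was 1.36 (adjusted p = 0.00576), and without day-0 replicate 1 it was 1.52 (adjusted p = 0.0324). Over all alternative runs, its lowest log2 fold-changes against day-0 were 1.10 with TVB-3166, 0.86 with bleomycin and 0.43 with palbociclib. The palbociclib call was lost without any 1 of the 3 palbociclib replicates (adjusted p = 0.0831, 0.0665 and 0.0673 without replicates 1, 2 and 3). CDKN1A was not called in doxorubicin (log2 fold-change 0.32, adjusted p = 0.346) or alisertib TIS cells (-0.48, adjusted p = 0.192), but was called lower in alisertib TIS cells without day-0 replicate 1 (-0.78, adjusted p = 0.00110). Against day-7, CDKN1A rose in 5 of the 6 drug groups, from 1.65-fold with doxorubicin (adjusted p = 0.00253) to 4.65-fold with ND-646 (adjusted p = 0.00237). The doxorubicin call against day-7 was not made when all 24 libraries were fitted together (adjusted p = 0.0682). The exception was alisertib, with a log2 fold-change of -0.08 and a 95% interval from -0.42 to 0.26.

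CDKN1B (p27), the other CIP/KIP member, hardly moved: its highest group mean was 1.51 times its lowest. Palbociclib TIS cells had the lowest values, 32.0, 31.7 and 32.1 CPM, below the day-0 (34.4, 38.1 and 43.6 CPM) and day-7 libraries (39.6, 49.4 and 47.4 CPM). Against day-7 CDKN1B fell by 0.50 on the log2 scale in palbociclib TIS cells (SE 0.10, adjusted p = 0.00186), and against day-0 the difference of -0.28 was just outside the threshold (adjusted p = 0.0515). The difference against day-0 was called without day-0 replicate 1 (-0.35, adjusted p = 0.0128), with no filter on low counts (0.0485), in the fit of all 24 libraries (0.0333) and with the replicate number as a block (0.0496), each an adjusted p from edgeR. TVB-3166 TIS cells (50.5, 46.5 and 47.3 CPM) were 1.25-fold above day-0 (adjusted p = 0.0243), a call lost without day-0 replicate 1 (adjusted p = 0.0658) or 2 (0.0684) and without TVB-3166 replicate 1 (0.0815) or 3 (0.0596), each an adjusted p of the same test. The remaining drug groups ran from 37.4 to 50.9 CPM and overlapped both untreated groups. ND-646 TIS cells were at 43.5, 49.1 and 50.9 CPM, and without replicate 1 of that group CDKN1B was called higher than at day-0 (log2 fold-change 0.37, adjusted p = 0.0304).

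CDKN2B, which encodes p15INK4B, was the INK4 gene with the largest change and the member called higher in every drug group against both untreated groups. Its day-0 libraries had 5.72, 12.6 and 12.1 CPM and its day-7 libraries 8.27, 10.7 and 10.7 CPM. Palbociclib TIS cells had 87.4, 70.0 and 81.3 CPM, doxorubicin TIS cells 77.0, 58.2 and 86.5 CPM, and bleomycin TIS cells 47.4, 35.9 and 71.9 CPM. These 3 groups overlapped each other and lay above all other libraries. Alisertib TIS cells had 27.3, 24.9 and 28.4 CPM, ND-646 TIS cells 19.4, 26.2 and 27.8 CPM, and TVB-3166 TIS cells 17.3, 20.7 and 22.9 CPM. This second set of 3 groups, whose neighbours in the order overlap, was above every untreated library and below every library of the first set.

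Against day-0, CDKN2B rose 7.89-fold in palbociclib TIS cells (log2 fold-change 2.98, SE 0.25, adjusted p = 7.82e-06), 7.38-fold in doxorubicin TIS cells (2.88, SE 0.27, adjusted p = 4.51e-05) and 5.13-fold in bleomycin TIS cells (2.36, SE 0.32, adjusted p = 0.000389). It rose 2.65-fold in alisertib TIS cells (adjusted p = 0.00173), 2.41-fold in ND-646 TIS cells (adjusted p = 0.0101) and 2.02-fold in TVB-3166 TIS cells (adjusted p = 0.00483). Against day-7 the folds ran from 2.07 with TVB-3166 (adjusted p = 0.000135) to 8.16 with palbociclib (adjusted p = 3.29e-07). The untreated groups differed by a log2 fold-change of -0.03 (95% interval -0.54 to 0.49). None of the 12 calls of CDKN2B was lost under any alternative run, including leaving out each library. Over these runs its lowest log2 fold-changes against day-0 were 0.72 with TVB-3166, 0.98 with ND-646 and 1.13 with alisertib. They were 2.05 with bleomycin, 2.58 with doxorubicin and 2.70 with palbociclib.

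CDKN2A, the neighbour of CDKN2B on chromosome 9, did not follow it. CDKN2A had 8.57, 14.04 and 9.68 CPM in day-0 cells and 12.6, 11.2 and 12.5 CPM in day-7 cells. Palbociclib TIS cells had 16.4, 15.2 and 15.7 CPM and were the one group above both untreated groups. ND-646 TIS cells (8.84, 7.11 and 5.51 CPM), TVB-3166 TIS cells (8.03, 6.58 and 7.38 CPM), bleomycin TIS cells (8.88, 6.42 and 9.72 CPM) and alisertib TIS cells (9.65, 9.99 and 9.09 CPM) were below all day-7 libraries. Of these groups TVB-3166 alone was also below all day-0 libraries. Doxorubicin TIS cells (14.1, 11.2 and 12.9 CPM) overlapped both untreated groups.

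In palbociclib TIS cells CDKN2A rose 1.47-fold against day-0 (adjusted p = 0.0217) and 1.31-fold against day-7 (adjusted p = 0.0127). Against day-7 it fell by 0.76 on the log2 scale with ND-646 (SE 0.20, adjusted p = 0.0203), by 0.72 with TVB-3166 (SE 0.13, adjusted p = 0.000920) and by 0.52 with bleomycin (SE 0.17, adjusted p = 0.0342). The alisertib difference of -0.33 against day-7 was not called (SE 0.11, adjusted p = 0.0676), but was called with same-numbered libraries as pairs (adjusted p = 0.0432) and without day-7 replicate 2 (0.0477), in the same edgeR test. Against day-0 the TVB-3166 difference of -0.55 was the only fall called (adjusted p = 0.0329), with ND-646 at -0.60 (adjusted p = 0.0973) and bleomycin at -0.36 (adjusted p = 0.221). In edgeR the ND-646 fall was called without ND-646 replicate 1 (-0.77, adjusted p = 0.0226) and in the fit of all 24 libraries (-0.58, adjusted p = 0.0102). Doxorubicin TIS cells were called higher than day-0 without day-0 replicate 2 (0.49, adjusted p = 0.0383). CDKN2A was the member whose calls depended most on single libraries. Its call against day-0 was lost for TVB-3166 without day-0 replicate 2 (adjusted p = 0.165) or TVB-3166 replicate 2 (0.110) or 3 (0.0825), and for palbociclib without day-0 replicate 1 (0.0504) or 3 (0.0667) or palbociclib replicate 1 (0.0675) or 3 (0.0584), in the same edgeR test. Its call against day-7 was lost for ND-646 without ND-646 replicate 2 or 3 or day-7 replicate 1 or 3 (adjusted p from 0.0545 to 0.0816), and for bleomycin without bleomycin replicate 2 or any day-7 replicate (adjusted p from 0.0503 to 0.106). The palbociclib call against day-7 was lost when all 24 libraries were fitted together (adjusted p = 0.0979), and the TVB-3166 call against day-7 held without each library.

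The ratio of CDKN2B to CDKN2A counts needs no scaling between libraries. It was 0.939 ± 0.296 (SD, n = 3) in day-0 cells and 0.820 ± 0.150 (SD, n = 3) in day-7 cells. It was 6.11 ± 1.12 in bleomycin, 5.78 ± 0.82 in doxorubicin and 5.04 ± 0.39 in palbociclib TIS cells (SD, n = 3). It was 3.64 ± 1.43 in ND-646, 2.80 ± 0.56 in TVB-3166 and 2.81 ± 0.32 in alisertib TIS cells (SD, n = 3). The lowest drug-treated library, at 2.15, was above the highest untreated one, at 1.25.

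CDKN2C, which encodes p18INK4C, went the other way from CDKN2B and was called lower than at day-0 in every drug group. Day-0 libraries had 39.5, 42.7 and 39.1 CPM, and day-7 libraries 30.6, 25.3 and 32.0 CPM. ND-646 TIS cells had 14.2, 8.72 and 11.7 CPM, bleomycin TIS cells 14.4, 8.17 and 11.8 CPM, and palbociclib TIS cells 12.5, 11.4 and 11.5 CPM. These 3 groups overlapped each other and were below all other libraries. Doxorubicin TIS cells had 18.7, 20.3 and 16.4 CPM, TVB-3166 TIS cells 25.6, 19.3 and 20.2 CPM, and alisertib TIS cells 25.6, 24.5 and 26.5 CPM. All 18 drug-treated libraries were below all 3 day-0 libraries, and the TVB-3166 and alisertib ranges overlapped the day-7 range.

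Against day-0, CDKN2C was 3.52-fold lower in ND-646 TIS cells (log2 fold-change -1.82, SE 0.19, adjusted p = 0.000190), 3.51-fold lower in bleomycin TIS cells (-1.81, SE 0.19, adjusted p = 9.83e-05) and 3.42-fold lower in palbociclib TIS cells (-1.77, SE 0.11, adjusted p = 1.68e-06). It was 2.17-fold lower with doxorubicin (adjusted p = 5.18e-05), 1.86-fold lower with TVB-3166 (adjusted p = 0.000118) and 1.59-fold lower with alisertib (adjusted p = 0.000596). Untreated day-7 cells were themselves at -0.45 relative to day-0 without a call (SE 0.11, adjusted p = 0.0813), although the ranges did not overlap, and with DESeq2 the adjusted p was 0.0105. Against day-7, CDKN2C fell in 5 drug groups, from 2.54-fold lower with ND-646 (adjusted p = 0.00151) to 1.35-fold lower with TVB-3166 (adjusted p = 0.0162), and the alisertib log2 fold-change of -0.19 was not called (adjusted p = 0.220, 95% interval -0.39 to 0.01). The TVB-3166 call against day-7 was lost without day-7 replicate 3 (adjusted p = 0.0756) and without TVB-3166 replicate 2 (0.0682) or 3 (0.0710), and alisertib was called lower than day-7 without day-7 replicate 2 (adjusted p = 0.0446).

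CDKN2D, which encodes p19INK4D, had the fewest counts of the members, from 33 to 159 per library. Palbociclib TIS cells had 1.51, 1.05 and 1.22 CPM against 2.85, 3.07 and 3.29 CPM at day-0 and 3.52, 2.75 and 2.85 CPM at day-7. CDKN2D was 2.42-fold lower in palbociclib TIS cells than at day-0 (log2 fold-change -1.28, SE 0.24, adjusted p = 0.00116) and 2.39-fold lower than at day-7 (-1.26, SE 0.23, adjusted p = 0.00134). In the other 5 drug groups it ran from 1.25 to 3.49 CPM, with log2 fold-changes from -0.51 to -0.23 against day-0, and no call was made. ND-646 TIS cells had 3.49, 1.25 and 1.96 CPM, and without replicate 1 they were called lower than day-0 (-0.93, adjusted p = 0.0181) and lower than day-7 (-0.93, adjusted p = 0.0144).

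**Figure D1:**
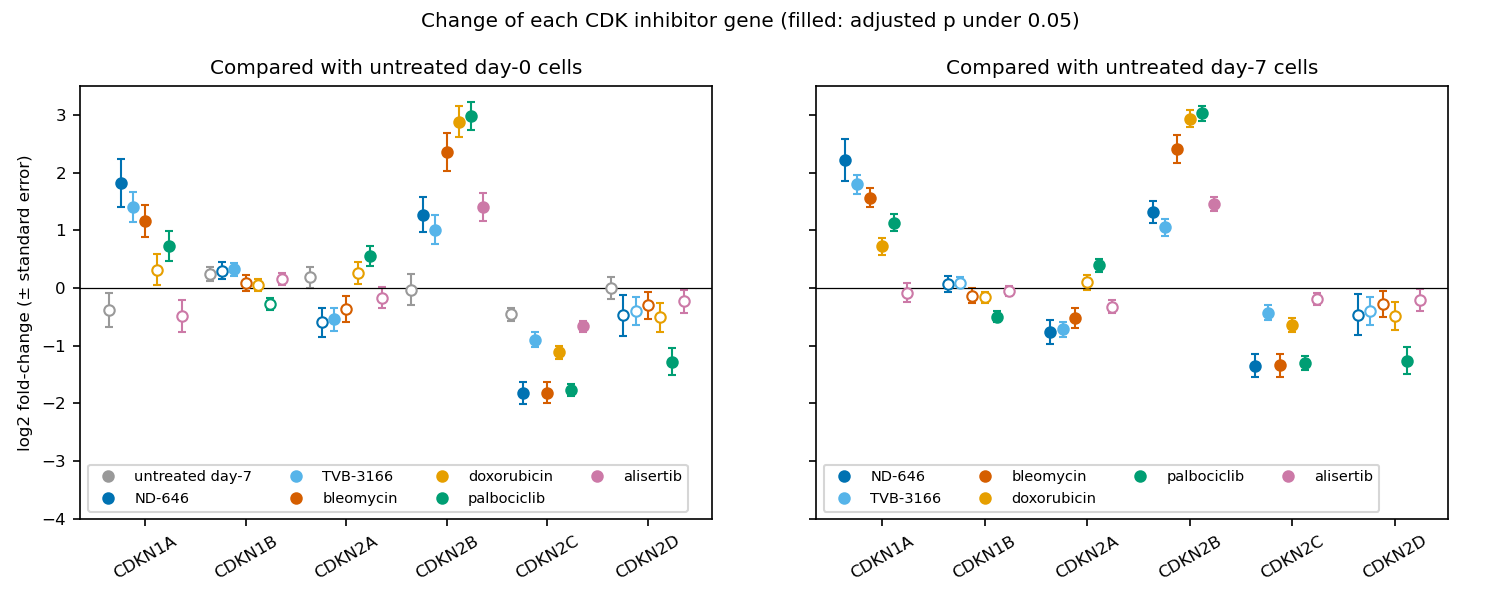
Change of the 6 genes against untreated day-0 (left) and untreated day-7 cells (right). The vertical axis is the log2 fold-change with its standard error, colours mark the group compared, and filled points have an adjusted p under 0.05. CDKN2B is above 0 in all 6 drug groups in both panels, and all 6 CDKN2C points of the drug groups are filled against day-0 and 5 against day-7.

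Counted together, in each drug comparison between 1 and 6 of the 6 members were called, and these counts are read beside the share of all tested genes called. Against day-0, ND-646 TIS cells had 2 members higher and 1 lower, where 19.1% of all genes were called higher and 18.8% lower, and TVB-3166 TIS cells 3 higher and 2 lower, where the shares were 27.4% and 27.7%. Bleomycin TIS cells had 2 higher and 1 lower (24.1% and 25.3% of all genes), and doxorubicin TIS cells 1 and 1 (23.7% and 24.8%). Palbociclib TIS cells had 3 higher and 2 lower (26.0% and 27.2%), and alisertib TIS cells 1 and 1 (17.7% and 19.6%). With shares of all genes this large and 6 members, the counts alone say little, and the results lie in which member moved in which direction. Without ND-646 replicate 1, all 6 members were called against day-0 in ND-646 TIS cells.

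Against day-7, ND-646 TIS cells had 2 members higher and 2 lower (17.2% and 17.1% of all genes), TVB-3166 TIS cells 2 and 2 (25.4% and 26.1%), and bleomycin TIS cells 2 and 2 (22.4% and 23.2%). Doxorubicin TIS cells had 2 higher and 1 lower (21.9% and 21.5%). Palbociclib TIS cells had 3 higher (CDKN1A, CDKN2A and CDKN2B) and 3 lower (CDKN1B, CDKN2C and CDKN2D), with 22.0% and 22.9% of all genes, and were the one group in which all 6 members were called. Alisertib TIS cells had CDKN2B higher and no member lower (9.55% and 9.49%), and with the replicate block CDKN2A was called lower as well (-0.32, adjusted p = 0.0432). The comparisons with day-0 share the day-0 libraries, and those with day-7 share the day-7 libraries.

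Between untreated day-7 and day-0 cells the main edgeR fit called 0 members, with 0.389% of all genes called higher and 0.198% lower. DESeq2 called 1 member, CDKN2C, and 3256 of the 13636 genes tested had an unadjusted p under 0.05 in edgeR. Between TVB-3166 and ND-646 TIS cells the main edgeR fit, which took no pairs, also called 0 members (0.520% of genes higher and 0.198% lower). In that fit 2057 of 13662 genes had an unadjusted p under 0.05. CDKN2C was the member furthest apart between these groups: every TVB-3166 library was above every ND-646 library, and the log2 fold-change of TVB-3166 over ND-646 was 0.91 (SE 0.21, adjusted p = 0.0948). It was called with DESeq2 (adjusted p = 0.00439), in the fit of all 24 libraries (0.00256), without ND-646 replicate 1 (0.00391) and with the replicate number as a block (0.0310), in which same-numbered libraries of the 2 groups are compared as pairs. For CDKN1A the difference was -0.43 with a 95% interval from -1.08 to 0.23, and for CDKN2B it was -0.27 with an interval from -0.62 to 0.09, so neither was shown to differ or to be alike.

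The fatty acid synthesis inhibitors were set against the other 4 drugs in 1 contrast of the 24-library fit, in which 26.3% of 14078 genes were called higher and 24.7% lower. The contrast was chosen after the levels were seen, so its values describe the levels above and give no further support. CDKN1A was 2.28-fold higher with the fatty acid synthesis inhibitors (log2 difference 1.19, SE 0.17), with a lowest, median and highest library of 30.5, 43.4 and 86.5 CPM against 9.45, 22.6 and 39.0 CPM in the 12 libraries of the other drugs. CDKN2B was 2.39-fold lower (-1.26, SE 0.16), at 17.3, 21.8 and 27.8 CPM against 24.9, 64.1 and 87.4 CPM. The ranges of both genes overlapped, CDKN1A through bleomycin and CDKN2B through alisertib. CDKN1B was 1.24-fold higher and CDKN2A 1.55-fold lower, and the log2 differences of CDKN2C and CDKN2D were -0.00467 and 0.15.

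**Figure D2:**
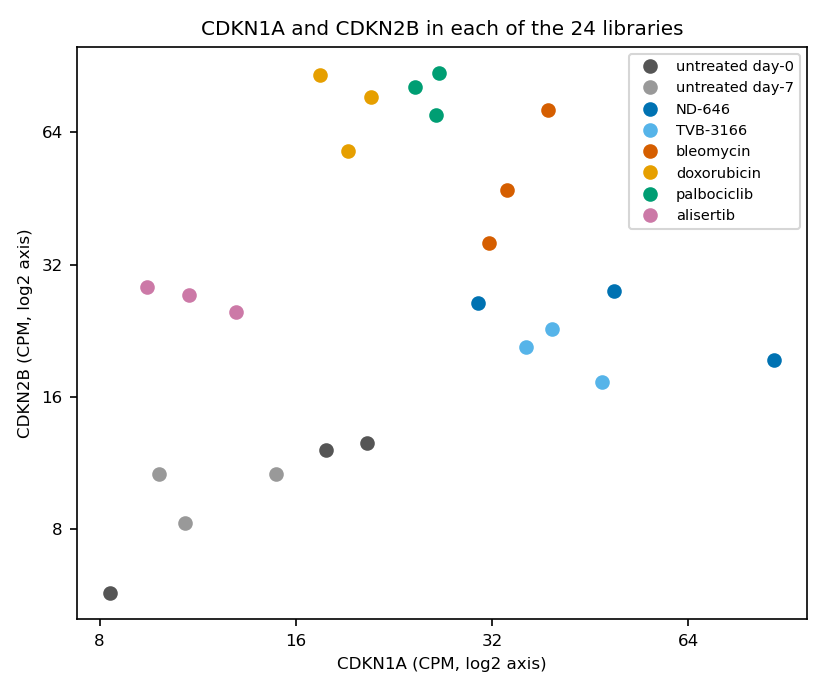
CDKN1A (horizontal) against CDKN2B (vertical) in each of the 24 libraries, in TMM-scaled CPM on log2 axes, coloured by group. ND-646 and TVB-3166 libraries lie to the right at CDKN2B levels from 17.3 to 27.8 CPM, doxorubicin and palbociclib libraries lie high at CDKN1A levels from 17.4 to 26.5 CPM, bleomycin is high in both, and alisertib is raised in CDKN2B alone.

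To compare levels between genes, CPM were divided by the length of the union of each gene's exons (RPKM). In untreated cells CDKN2C had the highest RPKM of the members, 13.4 ± 0.64 at day-0 and 9.72 ± 1.18 at day-7 (SD, n = 3), with CDKN1A at 5.19 ± 2.14 and 3.96 ± 0.90. In ND-646 TIS cells CDKN1A led at 18.5 ± 9.53 RPKM (SD, n = 3), while CDKN2C was at 3.83 ± 0.91. In doxorubicin and palbociclib TIS cells CDKN2B led, at 18.5 ± 3.61 and 19.9 ± 2.20 RPKM (SD, n = 3). These leading genes were the same when the length of the canonical transcript was used, a choice added after the levels were seen, as was CDKN2C in alisertib TIS cells. In TVB-3166 TIS cells the leader changed from CDKN1A (13.7 RPKM) to CDKN2C (21.8 RPKM with canonical length), and in bleomycin TIS cells from CDKN2B (12.9 RPKM) to CDKN1B (17.0 RPKM with canonical length). CDKN2D was the lowest member in every group under both lengths, from 0.836 to 2.04 RPKM by the union of exons.

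Across the 24 libraries, the members did not move as a block. Pearson's r of log2 CPM was -0.70 between CDKN2B and CDKN2C, -0.65 between CDKN2B and CDKN2D, -0.70 between CDKN1B and CDKN2A, 0.63 between CDKN2C and CDKN2D, and -0.60 between CDKN1A and CDKN2C. CDKN1B and CDKN2B gave -0.42, CDKN1A and CDKN2B 0.32, and the chromosome 9 neighbours CDKN2A and CDKN2B 0.30, and the other 7 pairs lay between -0.36 and 0.33. These values are descriptions over libraries that share 8 groups and 1 scaling.

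The genes whose pattern was most like that of each member were taken from 14078 genes by the same r over 24 libraries. For CDKN2B they were NT5E, which encodes the ecto-enzyme CD73 (r = 0.96), the serine protease gene PRSS23 (0.96) and the protease inhibitor gene TFPI2 (0.95). For CDKN2C they were CDCA3, a cell division cycle gene (0.96), the aquaglyceroporin gene AQP3 (0.95) and TCF19 (0.95). For CDKN1A they were CHP1 (0.91), the small GTPase gene RAB9A (0.91) and TES (0.90). CDKN2A was nearest to NFYB (0.86), MINDY1 (0.86) and SH3BP5 (0.84), and CDKN1B to FCHSD2 (0.86), SFMBT2 (0.85) and GTF2IRD1 (0.82). CDKN2D was nearest to TECR (0.88), SERTAD1 (0.86) and TECRP1 (0.86), where TECRP1 shares its name with TECR as a pseudogene and reads may be split between them.

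The lists of related genes are described against day-0 first and day-7 second. Their counts are read beside the shares of all genes called in the drug groups. These shares were 17.7% to 27.4% higher and 18.8% to 27.7% lower against day-0. Against day-7 they were 9.55% to 25.4% higher and 9.49% to 26.1% lower. Of 10 CDK and cyclin genes in the table (CCND2 had no row), between 6 and 8 were called lower and 2 higher than day-0 in each drug group, and none was called in untreated day-7 cells. The list's median log2 fold-change ran from -1.90 with ND-646 to -0.45 with alisertib, where the median of all genes lay between -0.01 and 0.02. The 2 that were higher in each of the 6 drug groups were CCND1 (cyclin D1) and CDK6, named here after their values were seen. INK4 proteins bind CDK6 and also CDK4, which went the other way. CDK4 had a mean of 105 CPM at day-0, and its drug group means ran from 73.6 CPM with bleomycin to 95.1 CPM with ND-646. It was among the 8 genes called lower with TVB-3166, bleomycin and doxorubicin. CCND1 rose from 0.51 with doxorubicin to 1.29 with palbociclib on the log2 scale, and CDK6 from 0.51 with alisertib to 1.31 with palbociclib. Among the lower genes, CCNA2 (cyclin A2) was 8.59-fold lower with ND-646 (log2 fold-change -3.10, adjusted p = 1.52e-05) and 1.65-fold lower with alisertib (adjusted p = 0.00143). CCND3 (cyclin D3) was lower by 1.06 to 1.90 on the log2 scale in all 6 drug groups, and CCNE2 and CCNB1 fell in all 6, by 0.72 to 2.80 and by 0.49 to 2.59. Against day-7, 4 to 8 of the 10 genes were called lower and 1 or 2 higher. CCND1 was higher than day-7 in all 6 drug groups and CDK6 in 4, with ND-646 (0.60, adjusted p = 0.106) and alisertib (0.18, adjusted p = 0.358) not called. CCNE2 (-0.32, adjusted p = 0.195) and CCNB1 (-0.30, adjusted p = 0.0592) were not called in alisertib TIS cells against day-7.

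Of the 8 pocket protein and E2F genes, 2 to 4 were called higher and 2 to 4 lower than day-0 in each drug group, too few genes to set a share apart from that of all genes. E2F2 fell against day-0 in all 6 drug groups, from 14.4-fold lower with ND-646 (adjusted p = 6.60e-06) to 1.53-fold lower with alisertib (adjusted p = 0.00313), and E2F1 fell in all but alisertib (log2 fold-change -0.25, adjusted p = 0.0967). Against day-7 both fell in every drug group but alisertib, where E2F2 was at -0.29 (adjusted p = 0.197) and E2F1 at -0.05 (adjusted p = 0.802). E2F5 was called higher than day-0 in all 6 drug groups, but also in untreated day-7 cells, 2.16-fold (adjusted p = 0.0474). Its mean was 5.16 CPM at day-0 and 11.1 CPM at day-7, and against day-7 palbociclib TIS cells alone were higher (20.6 CPM, adjusted p = 0.000569), while TVB-3166 TIS cells were lower (7.74 CPM, adjusted p = 0.0330). RBL2 (p130), the pocket protein of resting cells, was named after its values were seen. It was at 52.3 CPM at day-0 and 81.0 CPM at day-7, and was called higher than day-0 in all 6 drug groups, but higher than day-7 only with TVB-3166 (116 CPM, log2 fold-change 0.53, adjusted p = 0.00157) and palbociclib (99.4 CPM, 0.31, adjusted p = 0.0245). Against day-7, 0 of the 8 genes were called higher with ND-646, bleomycin, doxorubicin or alisertib in edgeR, 1 with TVB-3166 and 3 with palbociclib. From 0 (alisertib) to 6 (TVB-3166) were called lower than day-7, beside 9.49% and 26.1% of all genes in these 2 groups.

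Of the 11 genes for parts of the ubiquitin ligases that degrade CIP/KIP proteins and their regulators, 0 were called higher than day-0. In each drug group 6 to 9 were called lower. Against day-7, 0 were called higher and 4 to 10 lower, beside 9.49% to 26.1% of all genes called lower. The day-0 list medians ran from -0.65 with bleomycin to -0.27 with alisertib. Genes of the list moved unequally. CUL4A had a mean of 237 CPM at day-0, and its drug group means ran from 205 CPM with doxorubicin to 257 CPM with TVB-3166. What part a change in the share of cycling cells has in the falls was not tested. DTL, the substrate receptor for p21 in the CRL4 ligase, fell by 2.91 on the log2 scale with ND-646 against day-0 (adjusted p = 4.91e-05) and was not called with alisertib (-0.20, adjusted p = 0.135). CDC20 and UBE2C, which serve the anaphase-promoting complex, fell against day-0 in all 6 drug groups, CDC20 by 0.27 to 2.89 and UBE2C by 0.62 to 2.13. Against day-7 CDC20 fell in 5 and was at 109 CPM with alisertib against 98.0 CPM (log2 fold-change 0.16, adjusted p = 0.262), while UBE2C fell in all 6. These are transcript levels, and protein turnover was not analysed here.

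Genes for transcription factors known to act on CIP/KIP genes moved in both directions. Of 16 such genes, from 2 (alisertib) to 9 (bleomycin) were called higher and from 0 to 5 lower than day-0. Against day-7, from 2 (alisertib) to 10 (bleomycin) were called higher and from 0 to 3 lower. With bleomycin 0 were lower than day-7, and 22.4% of all genes were called higher. Nothing particular to the list is read from counts that differ this much between drugs. SMAD3, a mediator of TGF-beta signals that are known to induce CDKN2B and CDKN1A, rose against day-0 in all 6 drug groups, 6.62-fold with palbociclib (adjusted p = 1.40e-06), 5.94-fold with bleomycin, 5.35-fold with doxorubicin, 3.70-fold with ND-646, 2.41-fold with TVB-3166 and 2.096-fold with alisertib (adjusted p = 0.000652). It was higher than day-7 in all 6 as well, by 0.60 with alisertib (adjusted p = 0.00473) to 2.26 with palbociclib on the log2 scale.

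Of 12 Polycomb genes and other regulators of the INK4 locus, 1 to 4 were called higher and 3 to 5 lower than day-0 in the drug groups, beside 17.7% to 27.4% and 18.8% to 27.7% of all genes. Against day-7, 1 to 3 were called higher and from 1 to 6 lower. The most lower, 6, were with TVB-3166, where 26.1% of all genes were called lower. EZH2, the methyltransferase of Polycomb repressive complex 2, fell against day-0 in all 6, from 3.96-fold lower with bleomycin (adjusted p = 9.00e-05) to 1.68-fold lower with alisertib (adjusted p = 0.00167), and against day-7 in all but alisertib (log2 fold-change -0.38, adjusted p = 0.0602). ID1, an antagonist of factors that act on CDKN2A, was 4.01-fold lower than day-0 with doxorubicin and 4.04-fold lower with alisertib, was also lower with bleomycin and palbociclib (2.40-fold and 2.45-fold), and was not called with ND-646 (log2 fold-change -0.41, adjusted p = 0.345) or TVB-3166 (-0.39, adjusted p = 0.116). Against day-7 it was lower with doxorubicin and alisertib alone. The antisense gene CDKN2B-AS1 had low counts, 21, 16 and 30 in the day-0 libraries. Of the drug groups it was called higher than day-0 with doxorubicin alone (log2 fold-change 1.29, adjusted p = 0.00889), but untreated day-7 cells, at 1.35 CPM against 0.644 CPM at day-0, were about as high as doxorubicin TIS cells (1.57 CPM), and against day-7 it was called lower with ND-646 (0.670 CPM, adjusted p = 0.0231) and TVB-3166 (0.712 CPM, adjusted p = 0.0168).

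Around the missing CDKN1C, 8 of 10 listed genes of the imprinted region of chromosome 11 were in the table, and 7 or 8 were tested in each comparison. Of these, 0 to 2 were called higher and 2 to 5 lower than day-0 in the drug groups. The level of a gene of the region does not stand for that of CDKN1C. Against day-7, 0 to 2 were called higher and 1 to 4 lower, beside 9.55% to 25.4% and 9.49% to 26.1% of all genes. H19, an imprinted non-coding RNA, was at 101 CPM at day-0 and 55.1 CPM at day-7. It was 187-fold lower than day-0 with ND-646 (log2 fold-change -7.55, SE 0.25, adjusted p = 3.85e-06), 102-fold lower with TVB-3166 (adjusted p = 3.69e-09) and lower by 4.32 on the log2 scale with alisertib (adjusted p = 2.34e-08). H19 was called at a fold-change of 2 or more in 6 of the 7 comparisons with day-0, with a mean absolute log2 fold-change of 4.77 over the 7. Its values with the other drugs and against day-7 are not given here.

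All 10 proliferation genes of a marker list (CCNB1 and CDK1 are also in the cyclin and CDK list) were called lower than day-0 in every drug group but alisertib, where 8 were, and 0 were called in untreated day-7 cells. Against day-7, 10 were lower with ND-646, TVB-3166, bleomycin and palbociclib, 9 with doxorubicin and 4 with alisertib. Their median log2 fold-change against day-0 was -2.60 with ND-646, -1.66 with TVB-3166, -1.67 with bleomycin, -0.80 with doxorubicin, -1.48 with palbociclib and -0.46 with alisertib. MKI67 was 13.0-fold lower with ND-646 and 2.01-fold lower with doxorubicin, PLK1 9.02-fold and 2.52-fold lower, PCNA 4.30-fold and 2.13-fold, and MCM5 5.16-fold and 1.98-fold. CDKN2C moved the same way as these genes and CDKN2B the opposite way, and what part a change in the share of cycling cells has in either was not tested. In bulk RNA, a change in the number of cells that express a gene and a change in the level per cell cannot be told apart.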

How the data were processed

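The authors extracted RNA from SKBR3 cells, prepared stranded TruSeq libraries (the labels name the mRNA kit, the study's methods the total RNA kit), aligned reads to GRCh37 with HISAT2 and deposited raw read counts per gene from StringTie. The submitters' processing notes also list bcl2fastq and DESeq2. The deposited counts of 24 libraries were used, and 0 sample columns were left unmapped.

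Groups came from the sample labels. Each comparison was fitted to its own 6 libraries with edgeR 4.0.16 in R 4.3.3 (filterByExpr, TMM scaling, glmQLFit, glmQLFTest), with Benjamini-Hochberg adjustment over all genes tested. Levels are TMM-scaled CPM over 24 libraries. SEs are the absolute log2 fold-change over the square root of F, and 95% intervals are 1.96 SE on each side. Likeness used log2 CPM with a prior count of 2. The alternatives were DESeq2 1.42.0, size factors by RLE, no filter or a minimum of 10 counts in each library, 1 fit of all 24 libraries, the replicate block, a call by fold 2 and raw p under 0.05, and leave-one-out. The scripts were tested on simulated counts. All members were named. Other list genes were named when called at 2-fold or more in at least 4 of 7 comparisons with day-0, at most 4 per list, and 3 most alike genes per member. Results of 1 further gene list are not reported here. The members and lists were chosen with earlier results of these data known. Gene positions came from GENCODE on GRCh37 and promoters from RefSeq on GRCh38.p14, with entries for 6 members.

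Same-numbered libraries deviated together (all 3 correlations of deviations over 0.1) in bleomycin, doxorubicin and alisertib against day-7 (lowest 0.127, 0.102 and 0.114). They did so as well in TVB-3166 against ND-646 (lowest 0.251). The main fits had no term for the replicate number in any comparison, so their p-values are unpaired there too. Same-numbered libraries were taken as pairs only in the replicate block. The labels give only a number, so these correlations are the only ground for pairing.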

Additional observations from a re-analysis of the deposited data

How the results depend on the processing

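Of 1218 refitted log2 fold-changes of the 6 members, 1119 kept their direction and their side of the threshold, 41 lost a call, 22 gained one and 36 changed sign, and the changes of sign were all in differences without a call. For CDKN2B 199 of 203 were unchanged in both respects and 4, all between day-7 and day-0, changed sign. Where a value moved, the cause was not tested.

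The number of members called changed by over 1.5 times in these cases. With all 24 libraries in 1 fit it was 5 for ND-646 against day-0 and 1 for TVB-3166 against ND-646, where the separate fits gave 3 and 0. With DESeq2 it was 1 for day-7 against day-0 and 1 for TVB-3166 against ND-646. With fold 2 and raw p under 0.05 it was 2 for TVB-3166, 3 for palbociclib and 1 for alisertib against day-0, and 2 for TVB-3166 and 1 for doxorubicin against day-7. With the replicate block it was 1 for day-7 against day-0 (CDKN2C, adjusted p = 0.0322 in edgeR), 2 for alisertib against day-7 (CDKN2A joining CDKN2B, log2 fold-change -0.32, adjusted p = 0.0432 in edgeR) and 1 for TVB-3166 against ND-646. The block also moved CDKN1B in palbociclib against day-0 to a call (adjusted p = 0.0496 in edgeR) and changed no other call. Libraries of day-7 and day-0 shared only a number by the check used (correlations 0.255, 0.0755 and 0.175). Over all genes the block moved the calls from 80 to 1263 for day-7 against day-0, from 2627 to 4141 for alisertib against day-7 and from 98 to 310 for TVB-3166 against ND-646.

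Leaving out 1 library at a time, the number of members called ran from 3 to 6 for ND-646, from 3 to 5 for TVB-3166 and from 3 to 5 for palbociclib against day-0, from 1 to 3 for alisertib against day-7 and from 0 to 1 for TVB-3166 against ND-646. Over all alternative runs together, leave-one-out and the others, the log2 fold-changes whose sign changed ran as follows. Against day-0, CDKN1B ran from -0.0257 to 0.18 with bleomycin and from -0.0313 to 0.15 with doxorubicin, CDKN2A from -0.30 to 0.0777 with alisertib, and in day-7 cells CDKN2B ran from -0.32 to 0.16 and CDKN2D from -0.13 to 0.0608. Against day-7, CDKN1B ran from -0.0197 to 0.13 with ND-646, from -0.0043 to 0.15 with TVB-3166 and from -0.15 to 0.0043 with alisertib, and CDKN1A from -0.21 to 0.12 with alisertib. In TVB-3166 against ND-646, CDKN1A ran from -0.73 to 0.0448, CDKN1B from -0.0495 to 0.0566, CDKN2A from -0.12 to 0.22 and CDKN2D from -0.23 to 0.53. In the fatty acid synthesis inhibitors against the other 4 drugs, CDKN2C ran from -0.0960 to 0.0792 and CDKN2D from -0.0852 to 0.30.

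Signs of small differences also changed for CDKN2D in day-7 against day-0, to -0.00697 with DESeq2, -0.00797 with RLE size factors, -0.00497 with at least 10 counts per library, -0.0108 in the fit of all 24 libraries and -0.00205 with the replicate block, and for CDKN2B there to 0.0380 with the block.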
